A study of Mus musculus with 8 samples.

Results

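Ccl3, Ccl4, Ccl5, Ccl6 and Ccl9 are CC chemokines, small secreted proteins that draw leukocytes along a gradient, and Ccr1 is a receptor for several of them. These 5 ligands and 1 receptor were described in subcutaneous KPC tumours of mice. They were taken by gene symbol from a table of 57132 genes, in which each symbol stood on 1 identifier, and all 6 were among the 16588 genes that passed the filter on low counts. The treated group, called PDT (photodynamic therapy), holds 4 tumour samples from mice given Ce6@D4-EV and light. Ce6 is chlorin e6, a photosensitiser that turns light into reactive oxygen. The name D4-EV for what carries it is the submitters' own and is not explained further. The control group, called PBS, holds 4 tumour samples from mice given phosphate-buffered saline. KPC is a mouse model of pancreatic cancer. The labels give no strain, age, dose or time and describe the tissue as sorted without naming a gate, and neither light alone nor the unlit carrier was analysed here. They do not say that samples came from separate animals, so p-values measure only the spread between these samples.

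CC chemokines bind receptors coupled to inhibitory G proteins and are held on matrix glycosaminoglycans, which keep the gradient in place. Ccl3 and Ccl4 are made within hours of stimulation by macrophages, neutrophils and activated lymphocytes, and Ccl5 is made by T cells, NK cells and macrophages. Ccl6 and Ccl9 are rodent chemokines that macrophages and other myeloid cells make without stimulation. Ccr1, carried by monocytes, macrophages and neutrophils, is a receptor for Ccl3, Ccl5, Ccl6 and Ccl9, whereas Ccl4 acts mainly through another receptor.

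The 5 ligand genes lie side by side on mouse chromosome 11, in the order Ccl5, Ccl9, Ccl6, Ccl3, Ccl4 between Heatr9 and Wfdc17, and Ccr1 lies on chromosome 9. The 250 bases before the start of Ccl3, Ccl6 and Ccl9 are shown because Ccl3 had the largest difference of the 6 genes between PDT and PBS, while Ccl6 and Ccl9 varied together over the libraries. Of the 6 genes, 4 matched the promoter table from RefSeq on build GRCm38.p6, and Ccl4 and Ccl5 were not matched. All 3 are read on the minus strand, at chr11:83649379-83649628 for Ccl3, chr11:83593088-83593337 for Ccl6 and chr11:83578637-83578886 for Ccl9. Capitals mark matches, on either strand, to TATAAA, the core letters of the TATA box, to TGANTCA, which factors of the AP-1 family recognise, to a motif for NF-kappaB, or to GAGGAAG, a binding motif of the myeloid factor PU.1.
Ccl3: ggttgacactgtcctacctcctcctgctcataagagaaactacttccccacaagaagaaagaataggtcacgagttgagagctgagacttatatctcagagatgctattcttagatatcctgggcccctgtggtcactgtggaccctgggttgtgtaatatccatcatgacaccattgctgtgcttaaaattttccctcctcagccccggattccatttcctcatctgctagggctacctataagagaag
Ccl6: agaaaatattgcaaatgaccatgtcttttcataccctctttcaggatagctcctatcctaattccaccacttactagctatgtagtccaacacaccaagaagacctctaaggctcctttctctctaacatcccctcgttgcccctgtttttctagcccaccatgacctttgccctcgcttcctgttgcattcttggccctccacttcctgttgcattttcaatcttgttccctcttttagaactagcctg
Ccl9: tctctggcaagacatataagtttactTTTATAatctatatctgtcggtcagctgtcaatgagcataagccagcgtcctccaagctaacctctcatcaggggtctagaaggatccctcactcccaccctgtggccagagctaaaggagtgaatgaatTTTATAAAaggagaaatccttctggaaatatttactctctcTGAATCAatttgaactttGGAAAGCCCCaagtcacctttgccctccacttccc
In Ccl9 a TATAAA and its reverse complement overlapped, starting 92 and 94 bases before the start, another reverse match began 224 bases before it, TGANTCA was matched at 53 bases and the NF-kappaB motif at 35 bases on the reverse strand. No match to these 4 motifs lay in the windows of Ccl3, Ccl6 and Ccr1. Other forms of the motifs were not searched for, so a site of another form could be present. Among 32841 promoter windows of the same length, 12.4% held TATAAA, 6.75% TGANTCA, 10.6% GAGGAAG and 4.11% the NF-kappaB motif.

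Total counts ran from 39026840 to 48804713 in PDT and from 35742024 to 40337306 in PBS. CPM are counts scaled to the effective size of each library. On the first principal component, with 25.0% of the variance, PBS 1 lay at 111.5, the other PBS libraries between −4.32 and 8.53, and the PDT libraries between −37.2 and −16.1.

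Ccl3 and Ccl4, the pair of inducible ligands, had the highest group means in PDT relative to PBS, with wide spread among the treated tumours, and neither passed the test. Ccl5, Ccl6, Ccl9 and Ccr1 differed less between the groups than among the libraries of a group. By edgeR's quasi-likelihood test, 0 of the 6 genes had an adjusted p under 0.05, where 0.235% of all tested genes had, and 2 of the 6 had an unadjusted p under 0.05, where 16.5% of all tested genes had. DESeq2 called Ccl3 and Ccl4, 2 of 6 beside 6.36% of the genes it tested, and limma-voom with sample quality weights called 0 of 6 beside 1.01%. In all 6 genes the values of the groups overlapped, while 10.1% of tested genes had groups that did not. Of all tested genes 49.8% had a log2 fold change above 0, and of the 6 genes 5 had. Without the filter on low counts edgeR called Ccl3 and Ccl4, 2 of 6 beside 1.95% of the genes then tested. The median log2 fold change of all tested genes was −0.0022.

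Ccl3 (ENSMUSG00000000982), a chemoattractant for monocytes, neutrophils and T cells, was at 25.5, 1.96, 6.89 and 8.97 CPM in PDT 1 to PDT 4, against 0.299, 2.60, 1.74 and 0.901 CPM in PBS 1 to PBS 4. Of the PDT libraries 3 lay above every PBS library, and PDT 2 lay inside the PBS range, below PBS 2. Group levels were 10.8 ± 10.2 CPM in PDT and 1.38 ± 1.001 CPM in PBS (SD, n = 4 each). The fitted difference was 7.78-fold, a log2 fold change of 2.96 ± 0.76 (SE, 95% interval 1.31 to 4.61, edgeR adjusted p = 0.0985). The adjusted p was 0.0213 in DESeq2 and 0.218 in limma-voom. PBS 1 held 11 reads of Ccl3, the fewest of any library, and PDT 1 held 1150, the most.

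Ccl4 (ENSMUSG00000018930), a chemoattractant for monocytes and T cells, was at 21.4, 3.77, 4.95 and 4.99 CPM in PDT 1 to PDT 4, against 0.871, 2.29, 2.47 and 3.84 CPM in PBS 1 to PBS 4. PDT 1 stood far above the other PDT libraries, and PDT 2 lay just below PBS 4. Group levels were 8.77 ± 8.42 CPM in PDT and 2.37 ± 1.21 CPM in PBS (SD, n = 4 each), with a log2 fold change of 1.89 ± 0.60 (SE, 95% interval 0.58 to 3.20, edgeR adjusted p = 0.15). Without PDT 1 the log2 fold change was 0.96 for Ccl4 and 2.11 for Ccl3. With PDT 1 present, the value without any other single library ran from 1.62 to 2.24 for Ccl4 and from 2.63 to 3.46 for Ccl3, and neither gene passed in any of these 8 fits.

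Ccl5 (ENSMUSG00000035042), which attracts T cells and monocytes, was at 11.4, 12.03, 9.37 and 7.33 CPM in PDT 1 to PDT 4, against 4.73, 11.6, 5.31 and 9.54 CPM in PBS 1 to PBS 4. PBS 2 and PBS 4 lay among the PDT libraries, and PBS 1 and PBS 3 below them. The log2 fold change was 0.36 ± 0.31 (SE, 95% interval −0.32 to 1.04, edgeR adjusted p = 0.623). It was 0.19 without PBS 1, 0.22 without PBS 3 and 0.62 without PBS 2.

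**Figure D1:**
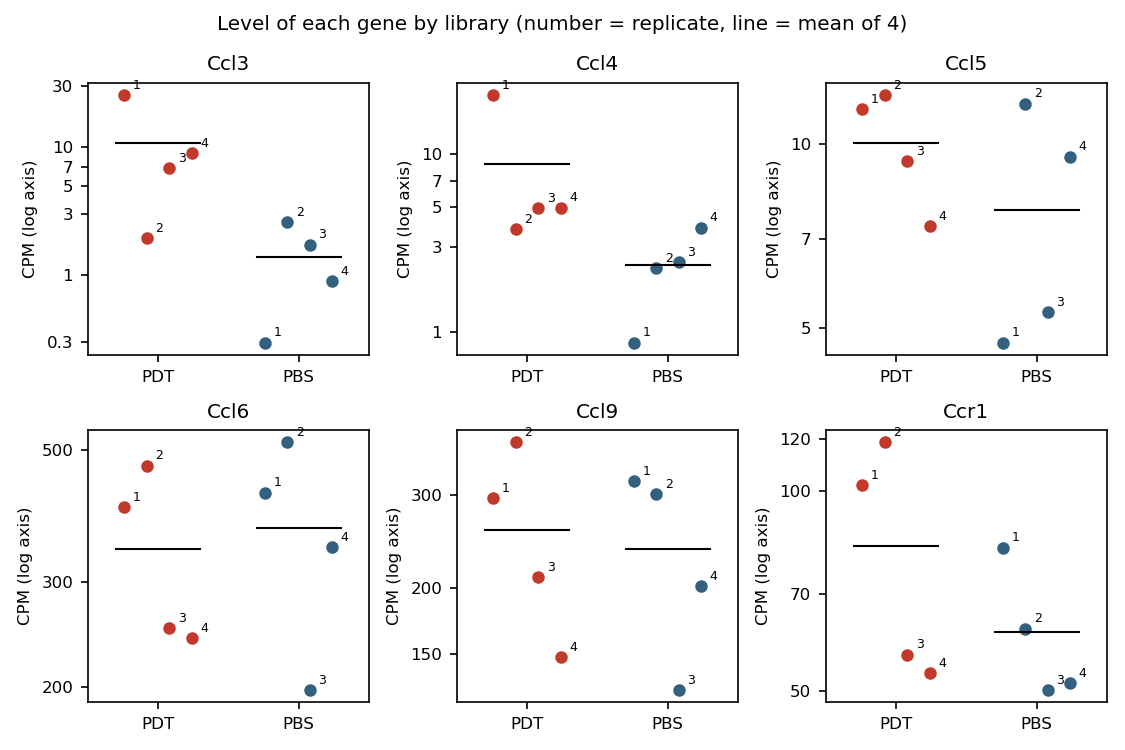
Level in CPM (log axis) of the 6 genes in 4 PDT and 4 PBS libraries, with the replicate number beside each point and the group mean as a line. For Ccl3, 3 PDT libraries at 6.89 to 25.5 CPM lie above all PBS libraries and PDT 2 at 1.96 CPM does not, while for Ccl6, Ccl9 and Ccr1 the groups overlap widely.

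Ccl6 (ENSMUSG00000018927), a rodent chemokine of myeloid cells, was at 400.03, 469.8, 250.7 and 241 CPM in PDT 1 to PDT 4, against 423, 514, 197 and 343 CPM in PBS 1 to PBS 4. The log2 fold change was −0.12 ± 0.29 (SE, 95% interval −0.74 to 0.51, edgeR adjusted p = 0.892). The lowest library, PBS 3, and the highest, PBS 2, were both controls.

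Ccl9 (ENSMUSG00000019122), another myeloid chemokine and a ligand of Ccr1, was at 297, 378, 209.8 and 148 CPM in PDT 1 to PDT 4, against 319, 301, 128 and 202 CPM in PBS 1 to PBS 4. The log2 fold change was 0.12 ± 0.31 (SE, 95% interval −0.56 to 0.81, edgeR adjusted p = 0.9). PDT 1 and PDT 2 were the higher PDT libraries for both Ccl6 and Ccl9, PBS 1 and PBS 2 the higher PBS libraries, and PBS 3 the lowest of all 8.

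Ccr1 (ENSMUSG00000025804), the receptor, was at 102, 118, 56.7 and 53.2 CPM in PDT 1 to PDT 4, against 82.2, 62.1, 50.2 and 51.4 CPM in PBS 1 to PBS 4. PDT 1 and PDT 2 were above all other libraries, and PDT 3 and PDT 4 were inside the PBS range. Group levels were 82.6 ± 32.7 CPM in PDT and 61.5 ± 14.8 CPM in PBS (SD, n = 4 each), with a log2 fold change of 0.43 ± 0.26 (SE, 95% interval −0.15 to 1.003, edgeR adjusted p = 0.465). It was 0.21 without PDT 2, and without any other single library it ran from 0.32 to 0.601.

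PDT 2 thus had the highest Ccr1, Ccl5, Ccl6 and Ccl9 of the PDT libraries and the lowest Ccl3 and Ccl4. PBS 1 had the highest Ccr1 and Ccl9 of the PBS libraries and the lowest Ccl3, Ccl4 and Ccl5.

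Per kilobase of annotated exon, the abundant ligands were the constitutive pair. Ccl6 was at 190 ± 62.8 CPM per kb in PDT and 206 ± 74.8 CPM per kb in PBS (SD, n = 4 each). Ccl9 was at 84.7 ± 33.1 CPM per kb in PDT and 77.9 ± 29.3 CPM per kb in PBS. Ccr1 came next, at 29.2 ± 11.5 CPM per kb in PDT and 21.7 ± 5.24 CPM per kb in PBS. In PBS the order went on with Ccl5 at 8.13 ± 3.47, Ccl4 at 3.59 ± 1.84 and Ccl3 at 1.81 ± 1.31 CPM per kb. In PDT it went on with Ccl3 at 14.1 ± 13.3, Ccl4 at 13.3 ± 12.8 and Ccl5 at 10.4 ± 2.22 CPM per kb, and these 3 neighbours did not differ beyond their spread. With the length of the principal transcript in place of all annotated exons, Ccl6 was at 236 ± 78.3 CPM per kb in PDT and 257 ± 93.2 CPM per kb in PBS. Ccl5 was then at 18.9 ± 3.999 CPM per kb in PDT and 14.7 ± 6.26 CPM per kb in PBS, above Ccl3 and Ccl4 by mean in both groups.

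Ccl3 and Ccl4 together made up 16.5%, 2.04%, 7.03% and 9.18% of the summed CPM per kb of the 5 ligands in PDT 1 to PDT 4, against 0.493%, 1.70%, 3.68% and 2.55% in PBS 1 to PBS 4. The share in PDT 2 lay inside the PBS range and the other PDT shares above it. Ccl6 and Ccl9 together made up 80.5% to 94.9% in PDT and 92.9% to 98.1% in PBS. The sum over all 5 ligands was 398, 407, 235 and 209.9 CPM per kb in PDT 1 to PDT 4, against 347, 404, 164 and 274 CPM per kb in PBS 1 to PBS 4. These shares are descriptions of 8 libraries with no test.

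**Figure D2:**
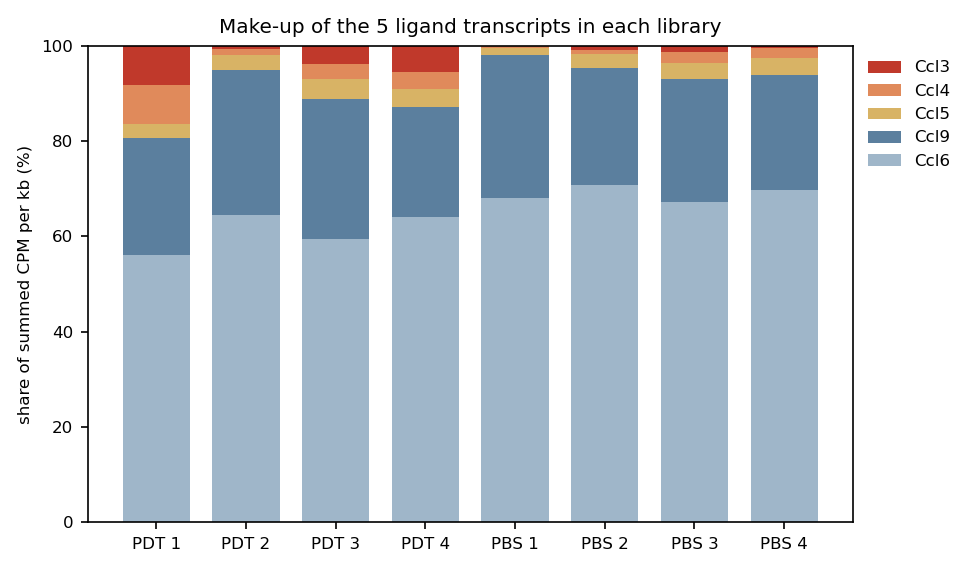
Share of each ligand, in percent of the summed CPM per kb of the 5 ligands, in each PDT and PBS library. Ccl6 and Ccl9 hold most of each bar, and the part of Ccl3 plus Ccl4 is widest in PDT 1, at 16.5%, and narrowest in PBS 1, at 0.493%.

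Ligand and receptor were then set against each other within a library, as log2 CPM of the ligand minus log2 CPM of Ccr1. Scaling between libraries touches this difference only through the small prior count added to each gene, which weighs most where reads are few. Ccl3 minus Ccr1 was −1.9998, −5.88, −3.03 and −2.56 in PDT 1 to PDT 4, against −7.88, −4.55, −4.81 and −5.76 in PBS 1 to PBS 4. The means were −3.37 ± 1.73 in PDT and −5.75 ± 1.51 in PBS (SD, n = 4 each), 2.38 higher in PDT, and PDT 2 lay inside the PBS range (two-sided exact permutation p = 0.114, 0.286 after adjustment over 5 ligands). Ccl4 minus Ccr1 was −3.53 ± 1.11 in PDT and −4.81 ± 1.19 in PBS (exact permutation p = 0.2, adjusted 0.333).

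The constitutive ligands ran the other way by mean. Ccl6 minus Ccr1 was 1.97, 1.99, 2.14 and 2.18 in PDT 1 to PDT 4, against 2.36, 3.05, 1.98 and 2.74 in PBS 1 to PBS 4. The mean was 0.46 lower in PDT, where the 4 libraries lay close together, and PBS 3 lay among them (exact permutation p = 0.114, adjusted 0.286). Ccl9 minus Ccr1 was 1.64 ± 0.18 in PDT and 1.89 ± 0.39 in PBS (exact permutation p = 0.314, adjusted 0.393), and Ccl5 minus Ccr1 was −2.97 ± 0.32 in PDT and −3.04 ± 0.81 in PBS (exact permutation p = 0.914). The smallest p that 70 assignments of the samples allow is 0.02857, and none of these 5 comparisons reached it.

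Set against Ptprc, the CD45 gene that all leukocytes carry, Ccr1 lay at 0.16 ± 0.33 log2 units in PDT and 0.12 ± 0.24 in PBS, a difference of 0.04 (SD, n = 4 each, exact permutation p = 0.8286, 0.886 after adjustment over 6 genes). Ccl3 minus Ptprc was −3.21 ± 1.61 in PDT and −5.63 ± 1.39 in PBS (exact permutation p = 0.0857, adjusted 0.257). Ccl6 minus Ptprc was 2.23 ± 0.23 in PDT and 2.65 ± 0.26 in PBS (exact permutation p = 0.0857, adjusted 0.257). For Ccl4, Ccl5 and Ccl9 minus Ptprc the exact permutation p-values were 0.171, 0.886 and 0.343. In bulk tissue, fewer cells of a type and less RNA per cell cannot be told apart. Ptprc itself had a log2 fold change of 0.31 ± 0.20 (SE, edgeR adjusted p = 0.47), which was 0.19 without PBS 3.

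Related ligands were also compared with each other. Ccl4 minus Ccl3 was −0.25, 0.93, −0.47 and −0.84 log2 CPM in PDT 1 to PDT 4, against 1.40, −0.18, 0.50 and 2.03 in PBS 1 to PBS 4 (exact permutation p = 0.143, also 0.143 after adjustment over 2 pairs). Ccl6 minus Ccl9 kept within 0.26 to 0.71 in PDT and 0.41 to 0.77 in PBS (exact permutation p = 0.143). Per kilobase, Ccl3 exceeded Ccl4 in 3 of 4 PDT libraries and in 0 of 4 PBS libraries.

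**Figure D3:**
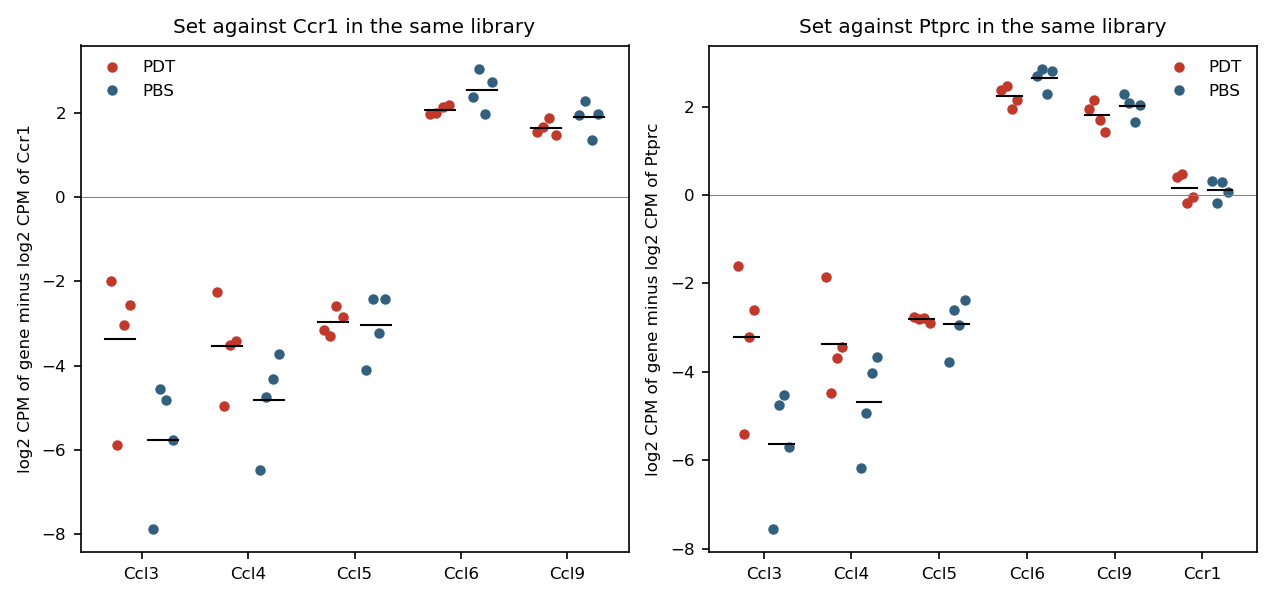
Log2 CPM of each ligand minus that of Ccr1 (left) and of each of the 6 genes minus that of Ptprc (right), within each PDT and PBS library, with group means as lines. Ccl3 and Ccl4 spread over several log2 units in both groups, while Ccl6 and Ccl9 stay within a narrow band above Ccr1.

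Profiles over the 8 libraries were compared by the root mean square difference of centred log2 CPM, a description with no test, in which all genes share the same libraries. Ccl6 and Ccl9 differed by 0.19 log2 units, against a median of 0.56 between Ccl6 and 13144 candidate genes with a mean of at least 1 CPM. Counted in with these candidates, Ccl9 was the gene of rank 4 for Ccl6, and Ccl6 the gene of rank 6 for Ccl9. Ccl4 had rank 12 for Ccl3, at 0.94 log2 units, while Ccl3 had rank 517 for Ccl4. The nearest member to Ccl5 was Ccl6, at 0.48, rank 2775, and the nearest to Ccr1 was Ccl9, at 0.29, rank 121.

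The 3 genes nearest to Ccr1 were Cd53, a tetraspanin of leukocytes, at 0.13 log2 units, Hacd4, a fatty acid dehydratase, at 0.14, and Cfap300 at 0.16. Ccl3 was nearest to Gpnmb, a glycoprotein of macrophages and lysosomes, at 0.801, then to Kdf1 at 0.81. Clec4e, a lectin receptor of macrophages and neutrophils, followed at 0.82. These are loose matches, the median between Ccl3 and the candidate genes being 1.86. Kdf1, with 0 reads in PBS 1, had rank 29 for Ccl3 with a prior count of 0.5. Ccl4 was nearest to Irx1, a homeobox factor, at 0.501, to Pnp2, a purine nucleoside phosphorylase, at 0.51 and to the chemokine Ccl24 at 0.51. Nearest to Ccl5 were Spice1 at 0.19, the pentraxin Ptx3 at 0.2003 and the lipase Daglb at 0.204. Spaca1 at 0.16, Phf11b at 0.18 and the ether lipid enzyme Agmo at 0.19 were nearest to Ccl6. Lox, which crosslinks collagen, at 0.14, Tmem71 at 0.14 and Spaca1 at 0.17 were nearest to Ccl9.

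Markers of cells known to make these chemokines were measured in the same libraries. The 16 macrophage and monocyte markers were all higher in PDT by fold change, their median being 0.60 on the log2 scale. Their summed level was 7016, 6190, 5252 and 5410 CPM in PDT 1 to PDT 4, against 4315, 3928, 2226 and 3425 CPM in PBS 1 to PBS 4. In edgeR 1 of the 16 passed and 12 had an unadjusted p under 0.05, beside 0.235% and 16.5% of all tested genes. DESeq2 called 8 and limma-voom 3, beside 6.36% and 1.01%. The gene that passed in edgeR was Cd68, a lysosomal glycoprotein, which rose, at 124 ± 11.98 CPM in PDT and 69.1 ± 11.9 CPM in PBS (SD, n = 4 each, edgeR adjusted p = 0.0497), a call lost without any 1 of the 8 libraries. Ly6c2 of inflammatory monocytes had a log2 fold change of 2.46 ± 0.44 (SE, adjusted p = 0.051).

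All 11 tested neutrophil markers of 12 were higher in PDT by fold change, with a median of 1.37, and 0 passed in edgeR, 7 at an unadjusted p under 0.05, 3 in DESeq2 and 1 in limma-voom, where the shares of all tested genes were 0.235%, 16.5%, 6.36% and 1.01%. Csf3r, a growth factor receptor of granulocytes, had a log2 fold change of 1.37 ± 0.25 (SE, adjusted p = 0.0515) and Clec4d 1.58 ± 0.36 (adjusted p = 0.0818). Their summed level was 632, 176, 542 and 316 CPM in PDT 1 to PDT 4, against 147, 173, 248 and 94.8 CPM in PBS 1 to PBS 4. PDT 2, the PDT library with the lowest Ccl3 and Ccl4, was also the one whose neutrophil sum lay inside the PBS range. Csf3r, the 1 of the 11 whose groups did not overlap, was at 19.6 CPM in PDT 2, above every PBS library (8.64 to 14.4 CPM). PDT 1, with the highest Ccl3 and Ccl4, had the highest macrophage and neutrophil sums. The macrophage sum was next highest in PDT 2, at 6190 CPM, and in PDT 1 Lyz2 alone held 4441 of the 7016 CPM. None of the macrophage or neutrophil markers was at 0 in all libraries. Their part in the values of the 6 genes was not tested.

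T cell markers summed to 23.3 to 31.2 CPM in PDT and 12.6 to 21.9 CPM in PBS, and those of NK and cytotoxic cells to 22.5 to 28.9 CPM in PDT and 6.80 to 15.4 CPM in PBS, with no overlap in either list. By fold change 10 of 11 tested T cell markers were higher in PDT, all but Trac at −0.18, and 9 of 10 tested NK and cytotoxic markers, all but Eomes at −0.56. In edgeR 0 members of either list passed, and 2 of 11 and 2 of 10 had an unadjusted p under 0.05, near the 16.5% of all tested genes. DESeq2 called 0 of the T cell and 1 of the cytotoxic markers, beside 6.36% of the genes it tested. It gave no adjusted p for Cd3e, Cd8a, Cd8b1, Cd5 and Cd28, nor for Ncr1, Klrb1c, Eomes and Xcl1, which could not be called. Limma-voom called 0 members of either list, beside 1.01%. The genes with the smallest p were Cd3d, of the T cell receptor complex, at 1.39 ± 0.501 (SE, edgeR adjusted p = 0.193), Cd8b1 at 2.92 ± 1.16 (0.232), Gzma, a granzyme, at 4.20 ± 0.89 (0.0678) and Xcl1 at 3.26 ± 1.18 (0.195), all as log2 fold changes. Cd8b1 was at 4.74 without PBS 2. In PBS 1 to PBS 4 Gzma had 20, 12, 0 and 2 reads, Xcl1 0, 6, 8 and 0, and Cd8b1 0, 34, 8 and 0. With so few control reads the size of these fold changes is poorly measured. Ccl5, a product of these cells, had PDT values close together and no passing difference, as given above.

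The remaining marker sums overlapped between the groups. Tumour epithelium summed to 2953 to 5835 CPM in PDT and 3365 to 6963 CPM in PBS, with none of its 8 genes, Krt19 and Epcam among them, at 0 in all libraries. Fibroblast markers summed to 11565 to 13228 CPM in PDT and 7037 to 14569 CPM in PBS, endothelium to 70.7 to 96.4 CPM in PDT and 75.9 to 89.8 CPM in PBS, and dendritic cells to 28.1 to 53.7 CPM in PDT and 32.2 to 50.7 CPM in PBS. B and plasma cells summed to 19.5 to 34.6 CPM in PDT and 15.3 to 56.4 CPM in PBS, with Mzb1 at 0 throughout, and eosinophil, basophil and mast cell genes to 104 to 130.5 CPM in PDT and 79.9 to 132 CPM in PBS, with Epx at 0 throughout. Markers of surrounding tissue and blood varied widely, with skeletal muscle at 144 to 3181 CPM in PDT and 49.3 to 1277 CPM in PBS, adipocytes at 52.6 to 271 CPM in PDT and 27.2 to 235 CPM in PBS, and erythroid genes at 591 to 1354 CPM in PDT and 809 to 4439 CPM in PBS.

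Among the other CC chemokine ligands, 6 of the 11 tested of 13 listed were higher in PDT by fold change, with a median of 0.18. In edgeR 0 of the 11 passed, 3 had an unadjusted p under 0.05, beside 16.5% of all tested genes, and DESeq2 called 2, beside 6.36%. Without PDT 2 the median was −0.20. Ccl2, which attracts monocytes, was at 74.9, 53.6, 35.7 and 25.6 CPM in PDT 1 to PDT 4, against 21.3, 23.7, 22.0 and 22.3 CPM in PBS 1 to PBS 4, with no overlap and a log2 fold change of 1.09 ± 0.27 (SE, edgeR adjusted p = 0.0951). Ccl24, an eosinophil attractant, was at 21.4, 5.81, 5.93 and 7.72 CPM in PDT 1 to PDT 4, against 2.99, 3.29, 2.58 and 6.75 CPM in PBS 1 to PBS 4 (adjusted p = 0.172). Its log2 fold change was 1.39 with all libraries and 0.74 without PDT 1. As with Ccl3 and Ccl4, PDT 1 was the highest library for both.

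Among the other CC receptors and atypical receptors, 7 of 13 passed the count filter and 4 of these were higher in PDT by fold change, with a median of 0.54. The median was −0.15 without a count filter and 0.095 without PDT 2. In edgeR 0 of the 7 passed and 1 had an unadjusted p under 0.05, beside 16.5% of all tested genes. DESeq2 called 0, beside 6.36% of the genes it tested, and gave no adjusted p for Ccr3, Ccr10 and Ackr1. Ccr3, another receptor of Ccl5, had 14, 62, 40 and 26 reads in PDT 1 to PDT 4 and 30, 2, 22 and 22 reads in PBS 1 to PBS 4, a log2 fold change of 0.71 ± 0.89 (SE, edgeR adjusted p = 0.76), which was 0.25 without PDT 2 and 0.33 without PBS 2. Ackr2, a scavenging receptor that takes up inflammatory CC chemokines without driving migration, was at 1.46 ± 0.52 CPM in PDT and 1.63 ± 0.70 CPM in PBS (SD, n = 4 each, edgeR adjusted p = 0.923). Ccrl2, a non-signalling receptor of activated myeloid cells, was at 21.0, 5.12, 11.3 and 8.505 CPM in PDT 1 to PDT 4, against 3.27, 4.43, 8.73 and 4.01 CPM in PBS 1 to PBS 4 (adjusted p = 0.202), again highest in PDT 1. Its log2 fold change was 1.17 with all libraries and 0.71 without PDT 1. Ccr7, which guides cells to lymph nodes, had 188, 468, 96 and 161 reads in PDT 1 to PDT 4 and 320, 346, 418 and 282 reads in PBS 1 to PBS 4, PDT 2 being the highest of all. Its log2 fold change was −0.71 ± 0.44 (SE, edgeR adjusted p = 0.466), −1.39 without PDT 2 (adjusted p = 0.0722) and −0.44 without PDT 3.

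**Figure D4:**
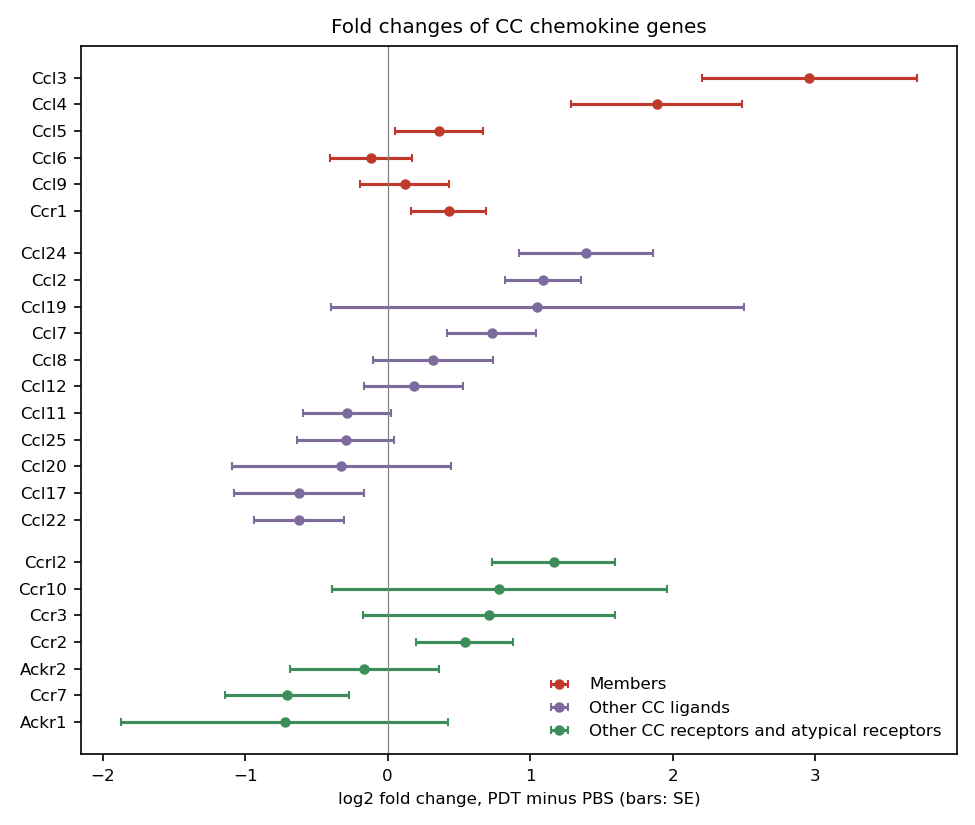
Log2 fold change, PDT minus PBS, with its standard error as a bar, for the 6 genes, the 11 other tested CC ligands and the 7 other tested CC receptors and atypical receptors. Ccl3 at 2.96 and Ccl4 at 1.89 lie farthest to the right, and none of the genes drawn passed an adjusted p of 0.05 in edgeR.

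Of 20 genes that carry the signal of such receptors or switch it off, 15 were higher in PDT by fold change, with a median of 0.48. An unadjusted p under 0.05 was found for 10 of the 20, beside 16.5% of all tested genes. Vav1, a signalling protein of blood cells, rose, at 32.6 ± 2.55 CPM in PDT and 13.2 ± 3.67 CPM in PBS (SD, n = 4 each), a log2 fold change of 1.31 ± 0.21 (SE, edgeR adjusted p = 0.0399). It was the 1 member called, and its call was lost in the fits without PDT 1, PDT 3, PDT 4, PBS 1, PBS 2 or PBS 3. Arrb2, an arrestin that uncouples receptors from G proteins, was at 85.7 ± 12.9 CPM in PDT and 43.3 ± 9.83 CPM in PBS (SD, n = 4 each, edgeR adjusted p = 0.051). DESeq2 called 9 of the 20 and limma-voom 3, beside 6.36% and 1.01% of all genes they tested.

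Among 17 tested inducers and co-induced genes of 18, 10 were higher in PDT by fold change, with a median of 0.11, which ran from 0.066 without PBS 1 to 0.25 without PBS 2. In edgeR 0 of the 17 passed, 6 had an unadjusted p under 0.05, beside 16.5% of all tested genes, and DESeq2 called 3, beside 6.36%. Tnf, a cytokine that induces Ccl3 and Ccl4, was at 12.9, 2.91, 7.09 and 6.99 CPM in PDT 1 to PDT 4, against 1.52, 4.05, 2.16 and 1.22 CPM in PBS 1 to PBS 4 (edgeR adjusted p = 0.117). Its order in PDT was that of Ccl3 at both ends, with PDT 1 highest and PDT 2 lowest and inside the PBS range. The same held for Ccl24 and Ccrl2, so this order was not particular to Tnf. Whether Tnf had a part in the level of Ccl3 was not tested. Tlr2, a receptor for bacterial lipopeptides, had a log2 fold change of 0.83 ± 0.22 (SE, adjusted p = 0.101).

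Of the 6 listed neighbours of the ligand cluster, 5 were tested and 4 were higher in PDT by fold change. In edgeR 0 of the 5 passed and 1 had an unadjusted p under 0.05, beside 16.5% of all tested genes. DESeq2 called 1 of the 5, beside 6.36% of the genes it tested. Taf15, an RNA-binding protein gene, was at 44.1, 32.7, 49.7 and 92.7 CPM in PDT 1 to PDT 4, against 21.8, 22.2, 18.3 and 40.8 CPM in PBS 1 to PBS 4 (edgeR adjusted p = 0.131). Its log2 fold change was 1.09 with all libraries and 0.72 without PDT 4. Its highest PDT library was PDT 4, unlike that of Ccl3 and Ccl4. Wfdc21 was at 12.3, 3.92, 19.1 and 9.19 CPM in PDT 1 to PDT 4, against 0.98, 12.9, 0.999 and 0.116 CPM in PBS 1 to PBS 4 (adjusted p = 0.471). Its log2 fold change was 1.57 with all libraries and 3.99 without PBS 2.

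**Figure D5:**
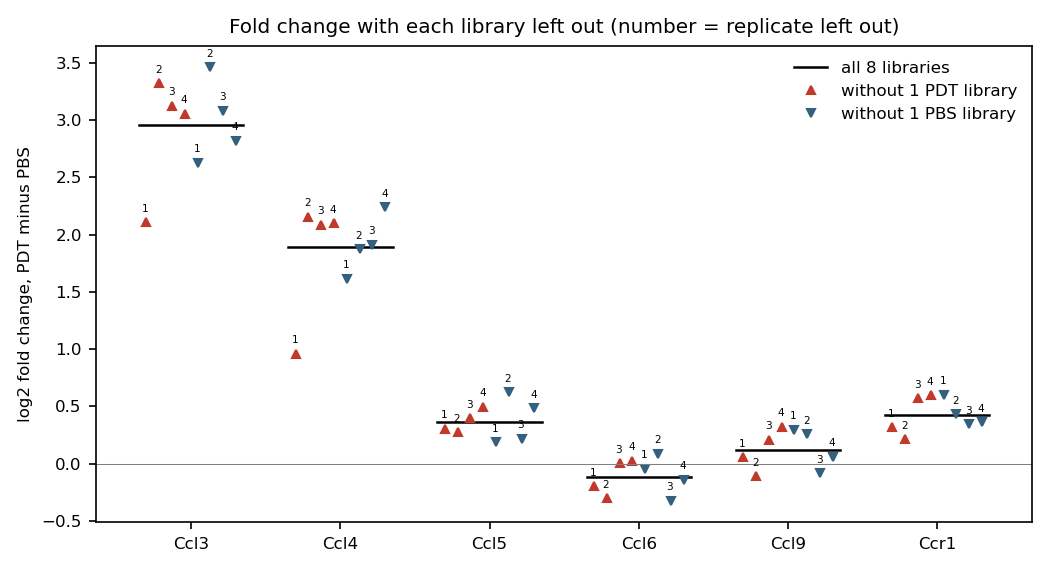
Log2 fold change, PDT minus PBS, of the 6 genes with all 8 libraries (line) and with each library left out (triangles, numbered by the replicate left out). Leaving out PDT 1 takes Ccl4 to 0.96 and Ccl3 to 2.11, while Ccl6 and Ccl9 cross 0.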

How the data were processed

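Per the labels' protocols, ribosomal RNA was removed and strand-specific libraries were prepared. The authors deposited 1 table of raw counts per gene. The submitters' processing notes name Cutadapt 4.6, STAR 2.7.11b and build GRCm39. Which counter, strand setting and annotation were used is not given in the sources used here. Between 77.9% and 83.8% of counts from 1 to 20 were even, as when both reads of a pair are counted, so an alternative divided counts by 2.

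PDT minus PBS was fitted to the counts as deposited with edgeR 4.0.16 in R 4.3.3 (filterByExpr, TMM, quasi-likelihood test, no covariate, Benjamini-Hochberg over 16588 genes, threshold 0.05). CPM were taken on the TMM-scaled library size. Within-library differences used a prior count of 2 and exact permutation over 70 assignments. Alternatives included DESeq2 1.42.0, quality-weighted limma-voom (limma 3.58.1) and each library left out. Exon lengths came from GENCODE M21 (GRCm38). None of the 31-base words of 1 member occurred in another. At most 3.75% of those of a member, Ccl9, occurred in any other gene. The 28 library pairs had chi-square values of at least 52.7 per degree of freedom, far from the value near 1 of a library deposited again. The fit and permutation were tested on simulated data.

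Genes named were the 6 members, the 3 nearest in profile, Ccr3, Ackr2, Ptprc and the 2 with the smallest p of each pathway list and of the macrophage, neutrophil, T cell and cytotoxic lists. The members and the 18 lists were chosen with earlier results of these data known.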

Additional observations from a re-analysis of the deposited data

Results flagged for a closer look

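Within groups of 4, a library far from the rest was found in 8 of 116 groups of values examined by Dixon's test at the 95% level, which flags about 1 in 20 by chance. Ccl4 stood at 21.4 CPM in PDT 1, where the remaining PDT libraries held 3.77 to 4.99 CPM. Ccl24 stood at 21.4 CPM in PDT 1, where the remaining PDT libraries held 5.81 to 7.72 CPM. Wfdc21 stood at 12.9 CPM in PBS 2, where the remaining PBS libraries held 0.116 to 0.999 CPM. Ly6c2 stood at 3.96 CPM in PBS 2, where the remaining PBS libraries held 1.14 to 1.57 CPM. Dendritic cell markers summed to 53.7 CPM in PDT 2, where the remaining PDT libraries held 28.1 to 30.6 CPM. Tumour epithelium markers summed to 6963 CPM in PBS 3, where the remaining PBS libraries held 3365 to 3854 CPM. Adipocyte markers summed to 271 CPM in PDT 3, where the remaining PDT libraries held 52.6 to 63.2 CPM, and to 235 CPM in PBS 2, where the remaining PBS libraries held 27.2 to 30.9 CPM.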

How the results depend on the processing

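Ccl3, Ccl4, Ccl5 and Ccr1 kept the sign of their log2 fold change in all 16 alternative fits. Without a count filter, where 1.95% of genes were called, Ccl3 (2.97, adjusted p = 0.00259) and Ccl4 (1.90, 0.0271) passed in edgeR, as they did in DESeq2 (2.97 and 1.90). The count of genes past the threshold, 39, was 69 with upper quartile scaling, 534 without a filter, 88 with a filter of 1 CPM in 4 samples, 67 with counts divided by 2, 869 in DESeq2 and 167 in limma-voom with sample quality weights, which changes both the method and the weighting, and 0 to 122 with 1 library left out; at its lowest, without PDT 1 and without PBS 3, 2162 and 2349 genes had an unadjusted p under 0.05. With 1 library left out the log2 fold change ran from −0.32 to 0.086 for Ccl6 (0.01, 0.03 and 0.086 without PDT 3, PDT 4 and PBS 2), from −0.11 to 0.32 for Ccl9 (−0.11 and −0.08 without PDT 2 and PBS 3) and from −0.34 to 0.17 for Ackr2 (0.04 and 0.17 without PDT 1 and PBS 2). The within-library differences ran from −0.066 to 0.16 for Ccr1 minus Ptprc, from −0.29 to 0.28 for Ccl5 minus Ccr1 and from −0.18 to 0.29 for Ccl5 minus Ptprc, and the other 10 kept their sign, those of Ccl4 minus Ccr1, Ccl4 minus Ptprc, Ccl6 minus Ccr1, Ccl9 minus Ccr1 and Ccl9 minus Ptprc coming nearest to 0 at 0.73, 0.82, −0.29, −0.12 and −0.082. List medians ran, with 1 library left out, from −0.20 to 0.18 for other ligands, from 0.10 to 0.90 for other receptors, from 0.33 to 0.52 for receptor signalling, from 0.066 to 0.25 for inflammatory inducers and from −0.051 to 0.96 for genomic neighbours. The receptor median was −0.15 without a filter, 0.18 with 1 CPM in 4 samples and 0.18 with counts divided by 2, and the neighbour median was 1.07 in the weighted limma-voom fit. The cause of these shifts was not tested. The nearest genes kept to within rank 5 (Cd53, Lox and Tmem71) to 52 (Spice1) in alternatives chosen after the data were seen, apart from Ccl24, of rank 235 for Ccl4 without PDT 1. No clear pairing of the samples by replicate number was seen, though correlations this weak cannot settle whether there was one. Deviations from the group means correlated at 0.0385 to 0.069 across genes for the same number and at −0.124 to 0.136 for different numbers. All 4 PDT libraries correlated best with another number. The number as a replicate block gave 182 genes and called none of the 6, and the exact paired sign-flip permutation test of the within-library differences cannot go below p = 0.125. Ccr3, with 2 to 62 reads a library, is limited by depth, as are Gzma, Xcl1 and Cd8b1 by their few reads in PBS.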
